A study of Homo sapiens with 18 samples.

Results

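The respiratory chain of the inner mitochondrial membrane is built from subunits encoded in the nucleus and in mitochondrial DNA. The nuclear-encoded subunits were chosen by symbol: NDUFA, NDUFB, NDUFC, NDUFS and NDUFV genes with a number, SDHA to SDHD, symbols that begin with UQCR, CYC1, symbols from COX4 to COX8, and symbols that begin with ATP5. This rule found 88 of the 26941 genes in the count tables. No measured value entered it, but it was chosen with earlier results of these data known. Of these, 36 belonged to complex I, 4 to complex II, 10 to complex III, 17 to complex IV and 19 to complex V. The other members were ATP5MF-PTCD1, a read-through transcript that shares reads with ATP5MF, and the pseudogene UQCRBP1. The rule leaves out NDUFAB1 and the gene now named COXFA4 (formerly NDUFA4), and the tables hold no rows for the subunits encoded by mitochondrial DNA.

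RNA had been sequenced from 18 samples of 3 established cell lines of B-cell precursor acute lymphoblastic leukemia. The lines were REH, which carries the ETV6-RUNX1 fusion, 697 and RCH-ACV, and each is a single line, so that subtype and cell line cannot be told apart. In every line 3 samples had received *SOX11*-specific siRNA and 3 a non-specific control siRNA, each at 300 nM by nucleofection, and RNA was taken at 48 h. SOX11 is a transcription factor that these leukemias overexpress, and the study's methods describe the 3 samples of a group as independent biological replicates. The comparison asks how far a lower level of *SOX11* moved the subunits of each complex.

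Complex I takes electrons from NADH, and complex II takes them from succinate and is also an enzyme of the TCA cycle. Ubiquinone carries the electrons to complex III, cytochrome c carries them on to complex IV, which reduces oxygen, and complex V makes ATP from the proton gradient. Most nuclear genes for these subunits are known to be widely expressed, while some alternative forms are limited to certain tissues. Nuclear respiratory factors, ETS factors and YY1 are known to act at many of the promoters of these genes.

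Total counts per sample lay between 7039594 and 16592492, so that 3 counts in a sample equal 0.181 to 0.426 CPM (the count scaled to library size). *SOX11* itself was lower in all 9 *SOX11* siRNA samples than in the control samples of the same line: REH had 49.7 to 63.6 CPM against 96.9 to 102, 697 had 29.3 to 31.2 against 56.5 to 57.9, and RCH-ACV had 79.1 to 86.5 against 124 to 136. Its log2 fold changes, *SOX11* siRNA against control siRNA, were -0.83 (SE 0.0646), -0.91 (SE 0.0709) and -0.67 (SE 0.0549) in that order. Markers of B-cell precursors were present in the 3 lines, with 8 of 9 at 3 counts or more in REH, where VPREB1 was near 0, and 9 of 9 in 697 and RCH-ACV. Their summed level with *SOX11* siRNA was 6533 to 6605 CPM in REH, against 6159 to 6325 CPM in control samples. In 697 it was 4173 to 4325 CPM against 4870 to 5085 CPM, and in RCH-ACV 4325 to 5374 CPM against 5298 to 5522 CPM. The sum rests most on the markers with the highest levels, and single markers went both ways. Of the tested markers, 6 were higher and 2 lower in REH, 2 higher and 7 lower in 697, and 5 higher and 4 lower in RCH-ACV. In REH mean RAG1 went from 1882 to 2159 CPM and mean EBF1 from 370 to 338 CPM. In 697 mean DNTT went from 2611 to 2158 CPM and mean CD79A from 262 to 274 CPM. None of the 5 T-cell markers reached 3 counts in a sample. Summed myeloid markers lay between 2.27 and 31.3 CPM, and in REH they were lower with *SOX11* siRNA (9.79 to 11.3 CPM against 15.4 to 17.5). The part of these shifts in the values of the subunits was not tested.

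Some libraries stood apart. In RCH-ACV, *SOX11* siRNA replicate 3 correlated with its own group at r = 0.993 to 0.994 and with the control samples at r = 0.993, while the remaining 2 *SOX11* siRNA samples correlated at r = 0.996. In 697, *SOX11* siRNA replicate 3 and control siRNA replicate 1 were each closest to the other (r = 0.993, against 0.991 to 0.993 with their own groups), although *SOX11* was low in the first and high in the second. These correlations are across genes, which are not independent replicates. No REH library was closest to a library of the other group. Results that rest on the 3 libraries are given below with and without them.

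The promoters of the subunits were read from RefSeq sequence (GRCh38.p14), from 250 bases before to 50 bases after the start site, and were found for 69 of the 88 members. Fixed words of 3 factors were searched on both strands: GCATGCGC for NRF-1, CCGGAAG for ETS factors and AAGATGGC for YY1. The NRF-1 word stood in a promoter of 14 members (20.3%), the ETS word in 21 (30.4%) and the YY1 word in 12 (17.4%). Among all 27305 genes of the table the shares were 3.68%, 12.2% and 3.52%, and among its 35116 promoters 3.05%, 10.3% and 2.89%. At least 1 of the words stood in a promoter of 37 members (53.6%) against 17.6% of all genes. By complex this was 16 of 31 in complex I, 2 of 3 in complex II, 4 of 7 in complex III, 5 of 14 in complex IV and 10 of 14 in complex V. The NRF-1 word was in none of the 7 promoters of complex III and the YY1 word in none of the 14 genes of complex IV, which says only that these letters were not in these windows. The NRF-1 word overlaps its own reverse complement by 6 letters, so that a single site can match on both strands. The windows below belong to members described further on, and the word is in capitals, written along the strand of the gene:
SDHB, NRF-1 word, chr1:17054216-17054241, minus strand: gccaaatggGCATGCGCcgctactgc
SDHB, ETS word, chr1:17054144-17054169, minus strand: cccgggaaaCCGGAAGccgcctccca
SDHB, YY1 word, chr1:17054006-17054031, minus strand: tcaggagccAAGATGGCggcggtggt
COX5B, NRF-1 word, chr2:97645917-97645942, plus strand: cagagctggGCATGCGCaatttccgc
COX5B, ETS word, chr2:97646016-97646041, plus strand: agcccgcccCCGGAAGtccctcctgt
COX8A, ETS word on the opposite strand, chr11:63974593-63974618, plus strand: gctccagaaCTTCCGGccagcgcagc
NDUFS7, NRF-1 word, chr19:1383825-1383850, plus strand: ccggtttccGCATGCGCtccgagccg

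Of these 4 genes SDHB held all 3 words, and its YY1 word lies just after the start site. A second ETS word of COX5B and a YY1 word of NDUFS7 are not printed. The log2 fold changes of members that hold a word were set beside those of members that hold none. For REH the medians were -0.05 with a word (37 tested members) and -0.04 without (29). For 697 they were 0.01 (37) and 0.03 (28), and for RCH-ACV -0.01 (37) and 0.04 (28). These medians are a description, and the ranges overlapped in every line.

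The subunits together took about 1% of the counts in each sample. In REH their share was 0.894%, 0.912% and 0.882% in the 3 *SOX11* siRNA samples and 0.938%, 0.926% and 0.927% in the control samples, so the groups did not overlap. In 697 the shares were 1.15%, 1.13% and 1.17% against 1.12%, 1.11% and 1.14%, and in RCH-ACV 1.07%, 1.08% and 1.01% against 1.05%, 1.05% and 1.03%. In both of these lines the groups overlapped, and the lowest share in RCH-ACV was that of *SOX11* siRNA replicate 3. In bulk samples fewer cells and less RNA per cell cannot be told apart.

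**Figure D1:**
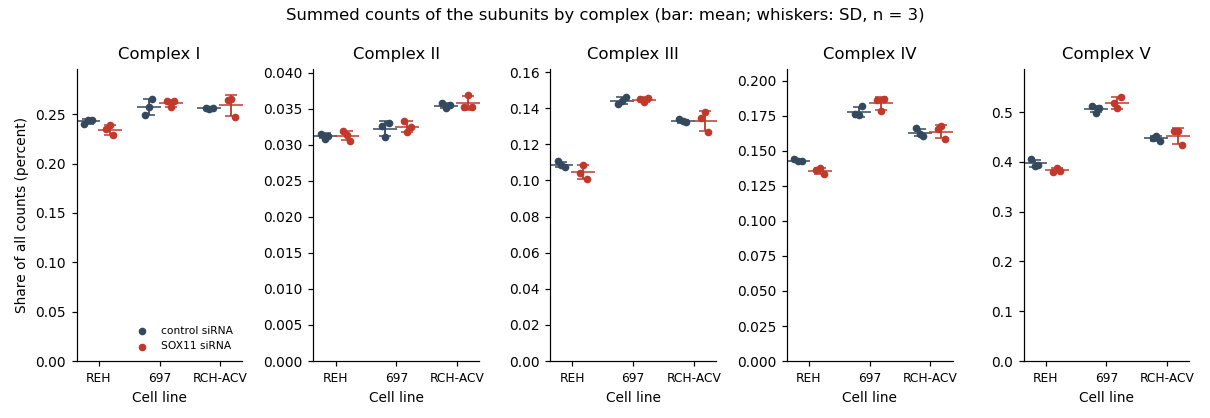
Share of all counts, in percent, taken by the summed subunits of each complex (1 panel per complex) in the 18 samples, by cell line, with control siRNA in dark blue and *SOX11* siRNA in red. Points are samples, bars are means and whiskers are SD (n = 3), and only complexes I, IV and V in REH have all *SOX11* siRNA samples below all control samples.

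The lower share in REH was seen in 3 complexes. Complex V went from 0.397% ± 0.007 to 0.384% ± 0.00432 (SD, n = 3), complex IV from 0.143% ± 0.000662 to 0.136% ± 0.00215, and complex I from 0.243% ± 0.00251 to 0.234% ± 0.00503, without overlap between the groups in each of them. Complex III went from 0.109% ± 0.0016 to 0.104% ± 0.00386 with overlap, and complex II stayed at 0.0312% ± 0.000352 and 0.0313% ± 0.000661. These shares use total counts without TMM scaling of the library sizes. On the TMM-scaled CPM used for single genes, the closest complex I samples all but met. They were *SOX11* siRNA replicate 2 at 2392.34 CPM and control siRNA replicate 1 at 2392.4 CPM. No test was run on these sums.

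In REH, the fit of each gene with edgeR's quasi-likelihood test gave 80 tested members, and the 8 left out had too few counts. Log2 fold changes ran from -0.19 (COX5B) to 0.22 (NDUFB1), where a negative value means a lower level with *SOX11* siRNA. Of the 80, 62 (77.5%) were below 0, against 51.0% of all 12787 tested genes, and their median was -0.04 against -0.0023 for all tested genes. Below 0 were 26 of 36 in complex I, 1 of 4 in complex II, 9 of 9 in complex III, 11 of 12 in complex IV and 14 of 18 in complex V. The medians of complexes I to V were -0.04, 0.01, -0.07, -0.05 and -0.03. All 3 *SOX11* siRNA samples lay below all 3 control samples for 24 of the 80 members, against 10.6% of all tested genes, and above them for 2 (NDUFB1 and NDUFS3), against 10.9%. These differences were small in size: the 95% interval lay within ±0.5 on the log2 scale for 79 of the 80 and within ±0.25 for 67.

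After Benjamini-Hochberg adjustment over all tested genes, 1 member passed the threshold of 0.05 in REH, where 4.65% of all tested genes did. It was lower with *SOX11* siRNA and none was higher, against 2.02% of all tested genes called lower and 2.64% called higher. This was NDUFS5, an accessory subunit of complex I (counted as NM_001184979, gene at chr1:39491990-39500308, plus strand, hg19). NDUFS5 stood at 105, 106 and 102 CPM in the *SOX11* siRNA samples and at 117, 117 and 114 CPM in the control samples. All samples with *SOX11* siRNA lay below all controls. It fell by 0.16 on the log2 scale (SE 0.0447, adjusted p = 0.0439 by edgeR's quasi-likelihood test, 95% interval -0.25 to -0.06). The call depended on every sample: with any 1 of the 6 left out the adjusted p of NDUFS5 was 0.0829 to 0.129, and with DESeq2 no member passed.

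Just past the threshold was COX5B, a structural subunit of complex IV whose promoter words are printed above. Its level was 61.0, 64.8 and 59.1 CPM with *SOX11* siRNA and 67.5, 72.3 and 70.2 CPM with control siRNA, a log2 fold change of -0.19 (SE 0.0562, adjusted p = 0.0503 in the edgeR fit). NDUFB1, a small accessory subunit of complex I, stood on the other side, at 31.7, 35.3 and 34.6 CPM against 29.6, 29.5 and 27.2 CPM. Its log2 fold change was 0.22 (SE 0.0749), with an adjusted p of 0.0939 in the edgeR fit. The other ends of the complexes in REH were NDUFS7 (-0.19), SDHC (-0.13), SDHB (0.07), UQCR11 (-0.17), UQCRC2 (-0.01), COX8A (0.02), ATP5MK (-0.15) and ATP5IF1 (0.06).

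The 24 members below their controls without overlap in REH came from every complex, and were picked out after their values were seen. In complex I they were 11: the core subunit NDUFS1, which takes part in the electron path through its iron-sulfur clusters, and NDUFA6, NDUFA8, NDUFA9, NDUFA12, NDUFB3, NDUFB6, NDUFB9, NDUFS4, NDUFS5 and NDUFS6. Their log2 fold changes lay between -0.16 (NDUFS6) and -0.06 (NDUFB9). NDUFS1 stood at 131, 123 and 127 CPM against 133, 141 and 139 CPM, and NDUFA9 at 124, 129 and 124 CPM against 136, 135 and 137 CPM. In complex IV they were COX4I1, COX5B, COX7A2, COX7B and COX7C, all of which sit around the core encoded by mitochondrial DNA. COX4I1 stood at 354, 342 and 337 CPM against 371, 359 and 362 CPM, and COX7C at 149, 160.5 and 152 CPM against 171, 163 and 169 CPM. The closest samples of the groups were thus a few CPM apart. In complex V they were ATP5F1B, ATP5MC3, ATP5MJ, ATP5PB and ATP5PO. ATP5F1B, the catalytic beta subunit, stood at 994, 1005 and 973 CPM against 1064, 1031 and 1055 CPM, with a log2 fold change of -0.08 (adjusted p = 0.109 by edgeR). Besides these the 24 held SDHC, UQCRQ and the read-through ATP5MF-PTCD1. Of the 24, NDUFS5 passed the adjusted threshold, and at an unadjusted p under 0.05 there were 17 of 80 members in REH, 16 of them lower, beside 2160 of all 12787 tested genes in either direction.

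Of the members below their controls without overlap in REH, ATP5PO, NDUFA6, NDUFA9, NDUFB9, NDUFS5 and SDHC were so in RCH-ACV too. The other members of that set overlapped with their controls in RCH-ACV, where 13.9% of all tested genes lay below without overlap. In 697 no member of that set lay below without overlap, and ATP5MC3 lay above. NDUFA9, taken from those that repeated in RCH-ACV, stood there at 129.8, 127 and 126 CPM against 140.0, 147 and 134 CPM. Its 697 levels of 117, 118 and 117 CPM lay within the range of the controls (124, 108 and 116 CPM). Across complex III, whose 9 tested members were all below 0 in REH, the log2 fold changes of UQCRB, UQCRC1 and UQCRH were below 0 in each of the lines, at -0.09 to -0.02, and those of UQCR10 and CYC1 were below 0 in REH alone.

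**Figure D2:**
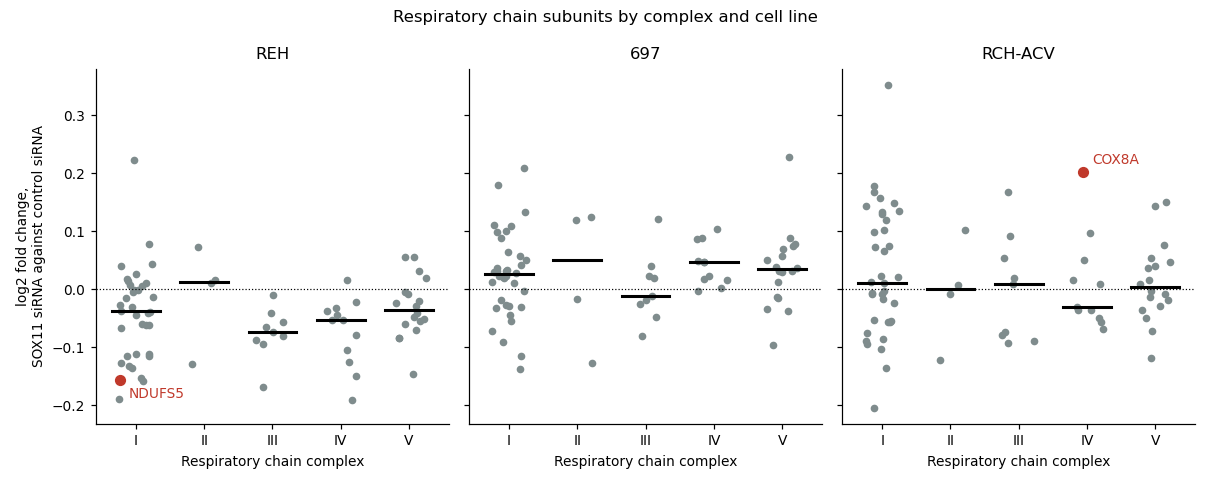
Log2 fold change of *SOX11* siRNA against control siRNA for every tested member of complexes I to V (x axis) in REH, 697 and RCH-ACV. Each point is a gene, black bars are medians, and red marks an adjusted p under 0.05, which only NDUFS5 in REH and COX8A in RCH-ACV reached; most points of REH lie below 0.

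In 697, none of the 79 tested members passed the threshold in edgeR's quasi-likelihood test, where 0.559% of all tested genes did (0.0822% higher and 0.477% lower). At an unadjusted p under 0.05 there were 3 of the 79, beside 1011 of all 12169 tested genes. DESeq2 also called 0 members. Here 26 of the 79 (32.9%) were below 0, against 51.4% of all tested genes, and the median was 0.03 against -0.0035. Above 0 were 24 of 36 in complex I, 2 of 4 in complex II, 4 of 9 in complex III, 10 of 11 in complex IV and 13 of 18 in complex V. The groups did not overlap for 8 members with *SOX11* siRNA above (10.1%, against 6.15% of all tested genes) and for 2 with it below (2.53%, against 7.79%). The 95% interval lay within ±0.5 for all 79 tested members and within ±0.25 for 59.

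The highest member in 697 was ATP5MC1, which encodes the c subunit of the rotor ring of complex V. It stood at 138, 133 and 128 CPM with *SOX11* siRNA and at 115, 105 and 121 CPM with control siRNA. The groups did not overlap. The log2 fold change was 0.23 (SE 0.0647, adjusted p = 0.247 in the edgeR fit). Without the 2 libraries of 697 that stood apart it was 0.27 (SE 0.0658, adjusted p = 0.0419), the 1 member called in that fit, which called 1.62% of all tested genes, and 0.517% as higher. The other ends were NDUFB1 (0.21) and NDUFB4 (-0.14) in complex I, SDHB (0.12) and SDHA (-0.13) in complex II, UQCR10 (0.12) and UQCRC1 (-0.08) in complex III, COX7B (0.10) and COX5B (-0.0019) in complex IV, and ATP5ME (-0.10) in complex V. Without those 2 libraries the median over the members was 0.0030, with 37 of 79 below 0, against 26 of 79 with them.

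In RCH-ACV, 1 of 79 tested members passed the threshold in edgeR's quasi-likelihood test, against 7.64% of all tested genes (3.68% higher and 3.97% lower). This was COX8A, the widely expressed form of a small subunit of complex IV (counted as NM_004074, gene at chr11:63742092-63744015, plus strand, hg19). COX8A stood at 117, 117 and 108 CPM with *SOX11* siRNA and at 107, 96.8 and 94.0 CPM with control siRNA. The lowest *SOX11* siRNA sample lay just above the highest control sample. It rose by 0.20 on the log2 scale (SE 0.0585, adjusted p = 0.0437, 95% interval 0.08 to 0.33, by edgeR). Its exons overlap a noncoding gene on the same strand in the GENCODE annotation, so reads of the pair could be shared.

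Over all members in RCH-ACV, 38 of 79 (48.1%) were below 0, against 48.5% of all tested genes, and the median was 0.0081 against 0.0051 for all tested genes. The medians of complexes I to V were 0.01, 0.00043, 0.0097, -0.03 and 0.0036. Non-overlapping groups with *SOX11* siRNA below were seen for 12 members (15.2%, against 13.9% of all tested genes) and with it above for 5 (6.33%, against 12.2%). The 95% interval lay within ±0.5 for 78 of the 79 and within ±0.25 for 60. The exception was NDUFS7, a subunit of complex I that binds an iron-sulfur cluster, with the highest log2 fold change (0.35, 95% interval 0.10 to 0.61, adjusted p = 0.0891 in the edgeR fit). It stood at 35.6, 34.2 and 28.3 CPM against 26.3, 19.5 and 30.6 CPM, and the groups overlapped. The lowest member was NDUFS4 (-0.20), which is also of complex I, and the other ends were SDHB (0.10), SDHC (-0.12), UQCR10 (0.17), UQCRFS1 (-0.09), COX6A1 (-0.07), ATP5MC1 (0.15) and ATP5MK (-0.12).

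The count in RCH-ACV depended on *SOX11* siRNA replicate 3. Without it 11 of 79 members passed, where 19.2% of all tested genes did, and 10 of the 11 were higher with *SOX11* siRNA, against 9.32% of all tested genes called higher. These 10 were NDUFA11, NDUFB8, NDUFS7, NDUFS8 and NDUFV1 of complex I, SDHB of complex II, CYC1 and UQCR10 of complex III, COX8A of complex IV and ATP5MC1 of complex V, with log2 fold changes of 0.14 (CYC1) to 0.43 (NDUFS7). NDUFA9 of complex I fell by 0.13 on the log2 scale, where 9.92% of all tested genes were called lower. For SDHB the *SOX11* siRNA samples stood at 97.3, 97.0 and 78.9 CPM, and the value of replicate 3 was below all 3 control samples (86.9, 82.1 and 86.2 CPM). CYC1, the heme-bearing cytochrome c1 of complex III, stood at 202, 208 and 186 CPM against 189.7, 183 and 189 CPM. Leaving out *SOX11* siRNA replicate 1 or 2 or control siRNA replicate 2 gave 0 calls, and without control siRNA replicate 3 the 1 call was NDUFS7. COX8A thus kept its call in 2 of the 6 fits with a sample left out, and in the other 4 its adjusted p was 0.145 to 0.194 by edgeR.

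A single fit over the 18 samples asked for an effect common to the lines, and edgeR called 3 of 80 tested members, against 9.02% of all tested genes. Of the 3, 2 were higher and 1 lower, against 3.74% and 5.28% of all tested genes. NDUFS5 was lower, with a log2 fold change of -0.12 (SE 0.0314, adjusted p = 0.0123). In 697 it stood at 98.0, 95.5 and 106 CPM against 114, 103 and 108 CPM, and the groups overlapped. RCH-ACV had 119, 119 and 111 CPM against 123, 129 and 119.9 CPM, and there they did not. ATP5MC1 (NM_005175, chr17:46970127-46973233, plus strand, hg19) was higher, with a log2 fold change of 0.15 (SE 0.0386, adjusted p = 0.0105 by edgeR). RCH-ACV had 125, 113 and 108 CPM against 109.6, 104 and 96.5 CPM, and REH had 49.4, 52.4 and 52.1 CPM against 51.3, 47.9 and 48.8 CPM. Both of these pairs of groups overlapped.

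NDUFB1 (NM_004545, chr14:92582466-92588261, minus strand, hg19) was the third, with a log2 fold change of 0.17 (SE 0.046, adjusted p = 0.0150 by edgeR). It was the member for which all *SOX11* siRNA samples lay above all control samples in each of the 3 lines. Beside the REH values above, 697 had 32.1, 33.6 and 37.4 CPM against 31.7, 29.4 and 28.1 CPM. RCH-ACV had 35.6, 34.8 and 33.7 CPM against 33.6, 30.2 and 33.2 CPM. The closest samples nearly met in 697 (32.1 against 31.7) and in RCH-ACV (33.7 against 33.6). Within a line, 10.9% (REH), 6.15% (697) and 12.2% (RCH-ACV) of all tested genes lay above without overlap. How many genes did so in all 3 lines was not counted. The fold change of NDUFB1 within a line passed the threshold in none of the 3. NDUFS5, ATP5MC1 and NDUFB1 were called with any 1 of the 18 samples left out. NDUFB1 was not called with a length correction and a replicate block together (adjusted p = 0.0584 by edgeR). They were also called without the 3 libraries that stood apart, together with SDHB, and that fit called 11.1% of all tested genes, 4.89% as higher and 6.2% as lower. DESeq2 also called these 3 members. Common to the lines, the median over the members was -0.01, with 45 of 80 below 0, and the 95% interval lay within ±0.25 for 77 of 80.

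**Figure D3:**
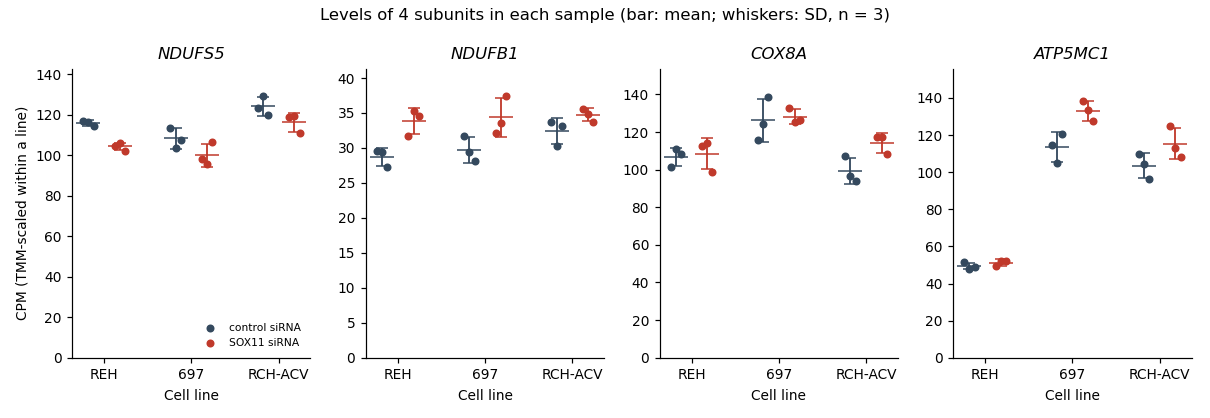
CPM of NDUFS5, NDUFB1, COX8A and ATP5MC1 (1 panel per gene, y axis from 0) in each sample of REH, 697 and RCH-ACV, with control siRNA in dark blue and *SOX11* siRNA in red. Points are samples, bars are means and whiskers are SD (n = 3). NDUFB1 is the panel in which no red point falls to the level of a blue point of the same line. In 697 and RCH-ACV the closest red and blue points of that panel nearly meet.

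Whether the siRNA effect differed between the lines was tested with the interaction of siRNA and cell line. No member of 80 passed in edgeR's quasi-likelihood test, against 0.727% of all tested genes. At an unadjusted p under 0.05 there were 8 members. All tested genes were not counted at that cut, so the 8 cannot be read as many or few. DESeq2 called 0 members. The smallest p belonged to NDUFB3, an accessory subunit of complex I, with an adjusted p of 0.211. REH had a log2 fold change of -0.14 for NDUFB3, 697 of 0.18 and RCH-ACV of 0.14, and the difference between REH and 697 was -0.32 (95% interval -0.52 to -0.12, adjusted p = 0.238 in the edgeR fit). Without the 3 libraries that stood apart 5 members passed, where 5.09% of all tested genes did. These were NDUFA11 (adjusted p = 0.0178), COX5B (0.0230), NDUFS7 (0.0262), UQCR10 (0.0282) and ATP5MC3 (0.0460), all with edgeR. With all samples, ATP5MC3, a second gene for subunit c of complex V, stood at 242, 246 and 237 CPM against 257, 258 and 251 CPM in REH. In 697 it stood at 379, 380.3 and 391 CPM against 367, 359 and 367 CPM. So the *SOX11* siRNA samples lay below all controls in the first line and above all of them in the second.

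Complex II has 4 subunits, all nuclear-encoded. SDHA, the flavoprotein, had log2 fold changes of 0.02, -0.13 and -0.01 (REH, 697, RCH-ACV). SDHB, the iron-sulfur subunit, had 0.07, 0.12 and 0.10, and in the fit over the lines 0.10 (SE 0.0368, adjusted p = 0.0946 by edgeR). SDHC and SDHD anchor the complex in the membrane. SDHC had -0.13, -0.02 and -0.12, and SDHD 0.01, 0.12 and 0.01. Neither passed the threshold in a line, while SDHC was below its controls without overlap in REH (36.6, 38.7 and 37.3 CPM against 39.4, 41.3 and 42.4) and in RCH-ACV (36.6, 37.9 and 39.1 CPM against 42.0, 39.5 and 42.2). ATP5IF1, the inhibitor of complex V, had 0.06, 0.01 and 0.08.

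Several subunits of complex IV exist as alternative genes, of which some are known from heart and skeletal muscle or from testis. On a scale of CPM per kb of coding sequence in the control samples, each set was carried by the widely expressed gene. COX4I1 stood at 691 ± 11.6, 721 ± 16.1 and 633 ± 23.9 (SD, n = 3, REH, 697, RCH-ACV), and COX4I2 had 0 counts in the 18 samples. COX6A1 stood at 203 ± 9.31, 225 ± 4.64 and 225 ± 10.4, and COX6A2, the muscle form, also had 0 counts. The muscle form COX7A1 and the testis form COX7B2 had 1 count each over the 18 samples, the testis form COX6B2 15, UQCRHL of complex III 32 and ATP5MGL of complex V 7. UQCRHL is a near-identical copy of UQCRH, so its few counts are uncertain. COX8C was the exception: it had 98 counts in the 6 REH samples, or 7.73 ± 1.48 CPM per kb in the controls, while 697 had 3 counts and RCH-ACV 1. In REH COX8C stood at 1.10, 1.65 and 2.18 CPM with *SOX11* siRNA and at 1.48, 2.10 and 1.62 CPM with control siRNA, and its 95% interval was the 1 that reached past 0.5 in REH. COX8A stood at 497 ± 23.0 CPM per kb in REH.

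**Figure D4:**
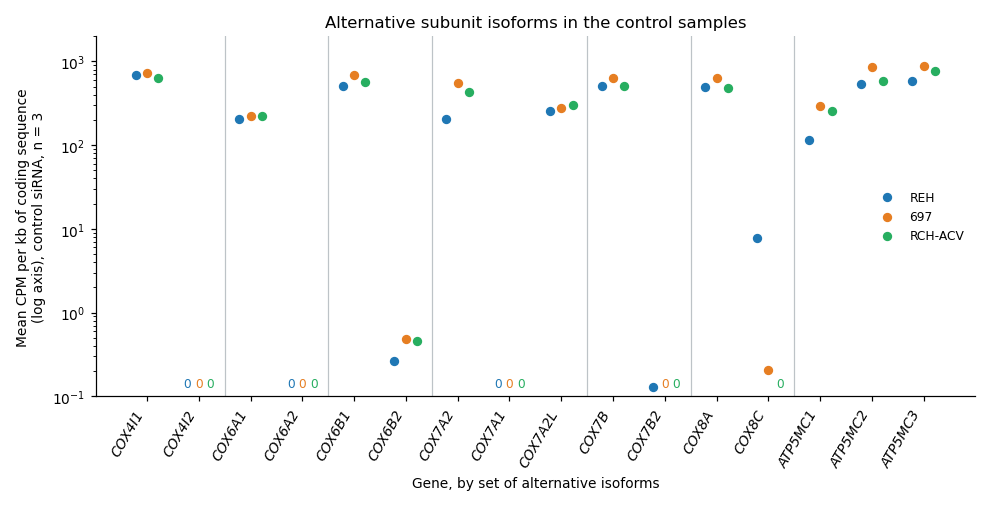
Mean level in the control samples (n = 3), in CPM per kb of coding sequence on a log axis, of alternative isoform genes of complex IV and of the 3 subunit c genes of complex V, in REH, 697 and RCH-ACV. A printed 0 marks a mean of 0, and COX8C in REH is the only alternative form of complex IV above 1 CPM per kb besides the widely expressed genes.

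The ATP5MC genes, 3 in number, encode the same subunit c of complex V. In REH ATP5MC1, ATP5MC2 and ATP5MC3 stood at 116 ± 4.23, 543 ± 13.6 and 578 ± 9.85 CPM per kb. In 697 they stood at 290 ± 21.5, 864 and 891 ± 20.9, and in RCH-ACV at 253 ± 16.1, 589 ± 8.97 and 773 ± 12.7 CPM per kb. ATP5MC1 was the lowest of the 3 in every line, beyond the spread between samples. Per kb of coding sequence, ATP5MC3 was higher than ATP5MC2 by more than the SD in REH and RCH-ACV. In 697 their difference was within the SD of ATP5MC2. The order of these 2 genes depends on the scale. In CPM without a length, ATP5MC3 stood below ATP5MC2 in REH (246 against 256) and in 697 (380 against 407). It stood above ATP5MC2 in RCH-ACV (329 against 277). ATP5MC2 has the longer coding sequence (471 against 426 nt) but the shorter annotated transcript (632 against 795 nt). Counts were made per transcript. Levels per kb of transcript were not computed, so which of the 2 genes is higher stays undecided in every line.

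Levels of the subunits also differed between the lines. On a common CPM scale over the control samples, the highest line exceeded the lowest by 1.02 to 2.91 times over 79 members, with a median of 1.29. It did so by more than 1.5 times for 24 and by more than 2 times for 9. The highest line was 697 for 49, RCH-ACV for 21 and REH for 9. UQCRC1, a core subunit of complex III, had the widest range, at 87.6 ± 2.5 CPM in REH, 255 ± 2.91 in 697 and 235 ± 8.50 in RCH-ACV. COX7A2 followed, at 50.4 ± 0.241, 138 ± 7.73 and 107 ± 1.96 CPM, and NDUFS4 was instead lowest in RCH-ACV, at 19.9 ± 2.39 CPM against 45.7 ± 0.989 in REH and 52.1 ± 2.83 in 697. These are descriptions of 3 lines, with 1 line for each set of control samples.

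Genes that work beside the complexes were read from further lists. Of 48 assembly factors, all tested, edgeR called 0 for REH, 0 for 697 and 2 for RCH-ACV, where 4.65%, 0.559% and 7.64% of all tested genes were called. At an unadjusted p under 0.05 there were 3, 2 and 5 of the 48, beside 2160 of 12787, 1011 of 12169 and 2934 of 12963 tested genes. NDUFAF3, which acts in the assembly of complex I, was higher in RCH-ACV, with a log2 fold change of 0.31 (SE 0.069, adjusted p = 0.0111), and in the fit over the lines (0.24, SE 0.0441, adjusted p = 0.000569). NDUFAF6, another assembly factor of complex I, was lower in RCH-ACV by 0.31 (SE 0.0812, adjusted p = 0.0253). The medians of the assembly factors were -0.05, 0.05 and 0.02 (REH, 697, RCH-ACV). None of the 17 genes of the TCA cycle and pyruvate dehydrogenase was called in a line by edgeR, with 2, 0 and 5 at an unadjusted p under 0.05.

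Of 20 genes for electron carriers and entry points, 19 were tested in REH and 697 and 20 in RCH-ACV. In REH and 697 edgeR called 0, with 4 and 0 at an unadjusted p under 0.05. In RCH-ACV it called 1 of 20, where 7.64% of all tested genes were called: COQ8A, a kinase-like gene of ubiquinone synthesis, at 0.24 in RCH-ACV (SE 0.0627, adjusted p = 0.0274 by edgeR). CYCS, the electron carrier cytochrome c, had a log2 fold change of -0.12 in REH (adjusted p = 0.106 by edgeR), and 697 and RCH-ACV had 0.09 and -0.02. Of 14 regulators of mitochondrial genes, 13 were tested in each line, and edgeR called 1 in REH, 0 in 697 (also 0 at an unadjusted p under 0.05) and 1 in RCH-ACV, beside 4.65%, 0.559% and 7.64% of all tested genes. In REH this was MYC, a transcription factor with many targets, which fell by 0.25 on the log2 scale (SE 0.0394, adjusted p = 0.000227 by edgeR). In RCH-ACV it was POLRMT, the RNA polymerase of mitochondria, at 0.36 (SE 0.0856, adjusted p = 0.0168 by edgeR). NDUFAB1, the complex I subunit outside the rule, had -0.10, -0.03 and -0.02 and was not called.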

How the data were processed

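RNA was sequenced from 3 *SOX11* siRNA and 3 control siRNA samples of each of REH, 697 and RCH-ACV. According to the study's methods, the authors checked reads with FastQC 0.10.1, trimmed and filtered them with the FASTX Toolkit, aligned them to hg19 with STAR 2.5.3a and discarded reads with more than a pair of locations. The authors deposited raw read counts per RefSeq transcript, made with HOMER, in 1 table per line without normalization. Whether the counting used strand is not given in the sources used here, and exons of 44 members overlap another gene, so such reads cannot be assigned with certainty. The tables hold 50678 transcripts and 0 columns of other samples.

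Symbols were matched for 98.0% of transcripts and 99.0% of counts, and of several transcripts of a gene the most counted 1 was kept. Each line was fitted with edgeR 4.0.16 in R 4.3.3 (TMM, filterByExpr by group, quasi-likelihood F-test, two-sided, Benjamini-Hochberg over all tested genes). CPM values use TMM-scaled library sizes. The 18 samples were also fitted together, with cell line as covariate, for the common effect and the interaction. The lists get no test as lists, and values per kb use the coding length in GENCODE 44 lifted to GRCh37. Intervals are 95% intervals of the fit, and floors of 3 counts cover counting error only. The scripts were tested on simulated data with planted log2 changes of 0.5 and 1, and smaller changes were not planted. Changes of 0.5 were recovered for 78% (REH), 67% (697) and 78.8% (RCH-ACV) of the genes that carried them. Of the genes called there at an adjusted p under 0.05, 2.81%, 9.58% and 7.26% had no planted change.

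The members and all lists were chosen with earlier results of these data known. Named are the called members, the highest and lowest member of each complex and line, the complex II subunits, CYC1, ATP5IF1, alternative isoforms, and called genes of the other lists. Proteins were not printed. NDUFS3, NDUFB3, NDUFA11, ATP5MC3, COX7A2, the members called only without a library and ATP5MGL and UQCRHL were named after their values were seen. Alternatives tried were size factors by RLE, no size factor, DESeq2 1.42.0, legacy quasi-likelihood, no filter, CPM above 1 in at least 3 samples, a replicate block, length and GC corrections in 20 bins, the top transcript within a line, an adjusted p under 0.01, 1 fit over the 18 samples, and leaving out samples. Leaving out the libraries that stood apart together was chosen after seeing the data.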

Additional observations from a re-analysis of the deposited data

Results flagged for a closer look

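The siRNA effect on *MYC*, a transcription factor listed among the regulators of mitochondrial genes, differed between the lines in the test of the interaction of siRNA and cell line (adjusted p = 0.00536 by edgeR). REH had a log2 fold change of -0.25, 697 of -0.085 and RCH-ACV of 0.085, and of these the first passed the threshold within its line. Among the markers of B-cell precursors the same test passed for *CD79A* (adjusted p = 0.0258), with 0.13, 0.06 and 0.46 (REH, 697, RCH-ACV), *IGLL1* (0.0255), with 0.03, -0.34 and 0.10, and *RAG1* (0.0313), with 0.20, -0.41 and -0.21, all by edgeR. No respiratory chain subunit passed it with all samples in the fit. Groups of 3 samples are too small for a check of single outlying samples.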

How the results depend on the processing

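The calls were few and close to the threshold. In REH the count of called members, 1 as reported, was 0 at an adjusted p under 0.01, with DESeq2, without a filter, with the length correction and in 1 fit over the 18 samples, and 2 with library size alone or the GC correction (*NDUFS5* and *COX5B*). With 1 sample left out it was 0 to 1, where the 1 was *COX5B* without control siRNA replicate 1. In RCH-ACV the count was 0 at an adjusted p under 0.01, with DESeq2, with the GC correction and in 1 fit over the 18 samples, and 0 to 11 with 1 sample left out, 11 without *SOX11* siRNA replicate 3 and 1 (*NDUFS7*, with *COX8A* lost) without control siRNA replicate 3. In 697 it was 0 throughout except for 1 (*ATP5MC1*) without the 2 libraries that stood apart, and 0 with any 1 sample left out. For the common effect the count, 3 as reported, was 0 at an adjusted p under 0.01, 4 with library size alone or the GC correction, 4 without the 3 libraries that stood apart, 5 without RCH-ACV *SOX11* siRNA replicate 3, and 3 to 5 over all left-out samples. For the difference between lines it was 0 throughout except for 5 without the 3 libraries together. In REH and RCH-ACV the members' median moved by less than the spread between samples, at -0.0584 to -0.0298 in REH and -0.0179 to 0.0295 in RCH-ACV, where it crossed 0. In 697 it also moved by less than the spread, at 0.0144 to 0.0513, except without the 2 libraries, where it was 0.0030 and moved by more than the SD between samples (0.0236). The cause of these shifts was not tested.

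Replicate numbers did not mark pairs: same-numbered samples had correlations of deviations from -0.247 to 0.265, and 0, 2 and 0 of 6 samples in REH, 697 and RCH-ACV correlated best with their own number. With the replicate block the counts were 0 in REH, 0 in 697, 1 in RCH-ACV, 3 for the common effect and 0 for the difference between lines, and with the block and the length correction 0 in REH, 0 in 697, 0 in RCH-ACV, 2 for the common effect (*NDUFB1* lost, adjusted p = 0.0584 by edgeR) and 0 for the difference. *SOX11* stayed lower and past the threshold under every alternative run, at -0.93 to -0.64 in log2 over the 3 lines.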
